A study of Mus musculus with 23 samples.

Results

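Primed enhancers are taken here as regulatory elements that carried H3K4me2 in the anterior cingulate cortex (ACC), retrosplenial cortex (RSC) and lateral entorhinal cortex (LEC) of the adult mouse and H3K27ac in none of the 4 subregions studied, the fourth being the medial entorhinal cortex (MEC). The H3K4me2 enhancer lists of ACC, RSC and LEC were merged wherever regions shared at least 1 bp, which gave 47187 elements. All 3 subregions contributed to 13987 of them. Of these, 2569 overlapped no region of the 4 full H3K27ac lists and are the members described here. The members were thus chosen by the listed regions of both marks, and their presence of H3K4me2 and their lack of H3K27ac are descriptions and not findings. Of the 4 H3K4me2 enhancer lists, only that of MEC took no part in the choice.

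C57BL6J mice were used at postnatal day 56. The subregions were dissected from both hemispheres in sections of 500 µm, without staining, by their architecture. Chromatin immunoprecipitation and sequencing of H3K27ac and of H3K4me2 was done on 2 libraries per subregion and mark, except MEC H3K4me2 with 1 library, and 8 input libraries bring the series to 23 samples. Neither sex nor the animal behind each library is stated in the labels. No group was treated, and all are whole dissected tissue of mixed neurons and glia. A mark that is present in few cells and a mark that is weak in many cells cannot be told apart in such tissue.

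Enhancers are stretches of DNA, often far from the genes they act on, where transcription factors bind and raise transcription. Methylation of lysine 4 of histone H3 is laid down by KMT2 family enzymes and marks enhancers and promoters in use or not. Acetylation of lysine 27, laid down by the coactivators p300 and CBP, is found at enhancers and promoters in use. An enhancer with the methyl mark and no acetyl mark is called primed: the site is marked but is not counted as active, for example before a stimulus, or after a developmental use has ended. Here the name stands for membership of the lists alone. H3K27me3, chromatin accessibility and transcription were not analysed here, so a silenced or poised site would fall under the same name.

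Each list pools its libraries, and the values carry no spread between animals and no depth. Brackets give Wilson 95% intervals after a percentage and order-statistic 95% intervals after a median. They cover counting error only, and elements are not replicates of a subregion. The H3K4me2 enhancer lists held 34180 regions for ACC, 28675 for RSC, 29125 for LEC and 15041 for MEC, whose regions had a median width of 750 bp against 1500 to 1600 bp in the other lists. The full H3K27ac lists held 48266 regions for ACC, 41584 for RSC, 42136 for LEC and 22848 for MEC.

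The members were 18.4% (17.7 to 19.02) of the elements with H3K4me2 in ACC, RSC and LEC, which is the background share for this call since the rule made it. At face value, the fewer subregions carried H3K4me2, the more often H3K27ac was missing. Of 15231 elements with H3K4me2 in 2 of the 3 subregions, 4706 or 30.9% (30.2 to 31.6) had no H3K27ac. Of 17969 elements with H3K4me2 in 1 subregion, 8219 or 45.7% (45.01 to 46.5) had none. These shares are not matched for width. Under 1500 bp, 55.05% (52.8 to 57.2) of the elements of all 3 subregions had none, above the share for 1 subregion at all widths. Among elements of all 3 subregions, H3K27ac was more often widespread than missing. A single H3K27ac list overlapped 1666 elements, 2 lists overlapped 2677, 3 lists overlapped 3917 and all 4 lists overlapped 3158.

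The count of members leaned most on the ACC H3K27ac list. That list overlapped 9876 of the 13987 elements, and for 841 of them it was the only H3K27ac list to do so. The LEC list was alone on 526 elements, the RSC list on 256 and the MEC list on 43. Without the MEC H3K27ac list, the shortest of the 4, the number of members would be 2612.

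The edge of the rule was thinly populated. Just inside it lay an element of 2625 bp at chr1:4758226-4760850, which ended 25 bp from an ACC H3K27ac region, 50 bp from a LEC region and 250 bp from an RSC region. The next members were chr8:80643126-80644300, 50 bp from LEC H3K27ac, and chr4:35116576-35117900, 250 bp from RSC H3K27ac. Only 12 members lay within 500 bp of H3K27ac. Just outside the rule, H3K27ac of RSC covered 150 bp of chrX:39673151-39675250, H3K27ac of ACC covered 200 bp of chr6:137609951-137611500 and H3K27ac of LEC covered 275 bp of chr13:59457576-59458975. Of the 11418 elements with H3K27ac, 12 carried it on 500 bp or less. By these counts few elements of either class lay near the edge, and a shift of the boundaries was not tried. With at least 50% of the element required under H3K27ac, the number of members was 3072. Positions are in mm9 and counted from 1.

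Primed elements were compact. Their median width was 1575 bp (1550 to 1600), with quartiles of 1325 and 2000 bp and a range from 875 to 13450 bp, and together they covered 4.79 Mb. Elements of the same 3 subregions that carried H3K27ac had a median of 2600 bp (2575 to 2650). Those with H3K27ac but none in MEC had a median of 2300 bp (2275 to 2350), and those with H3K27ac in MEC 3225 bp (3150 to 3325). A wide element has more room to meet an H3K27ac region, and how much of this order follows from the rule was not tested. The share of primed elements fell with width. It was 55.05% (52.8 to 57.2) of elements under 1500 bp and 19.7% (18.7 to 20.8) at 1500 to 2475 bp. At 2500 to 3975 bp it was 8.48% (7.61 to 9.45), and from 4000 bp 3.06% (2.49 to 3.74). Elements without H3K27ac from fewer subregions were narrower than the members, with a median of 1350 bp for 2 subregions and 1050 bp for 1, and merging more lists widens an element by construction.

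At most primed elements the H3K4me2 regions of the 3 subregions had similar outlines. In ACC the H3K4me2 bases of a member had a median of 1400 bp (quartiles 1200 and 1775), in LEC 1375 bp (1150 and 1675) and in RSC 1275 bp (1100 and 1525). In 2540 of the 2569 members each subregion contributed exactly 1 region. Over these, the 3 starts lay a median of 175 bp apart and the 3 ends 150 bp apart, on a grid of 25 bp. The stretch marked in all 3 at once had a median of 1150 bp and made up a median of 75.7% of the element. Identical starts were found in 28 elements and identical ends in 35. In 12 members no base was shared by all 3 lists, and the element was joined only through a chain of overlaps. Among elements of 1500 to 2475 bp the common stretch was a median of 74.7% of the element for primed elements and 74.6% for those with H3K27ac. It was lower for primed elements in the wider ranges. At 2500 to 3975 bp it was 44.2% against 61.3% with H3K27ac, and 57.02% with H3K27ac but none in MEC. From 4000 bp it was 35.5% against 56.98% and 46.3%. Under 1500 bp it was 80.0% against 79.3%, with 79.3% also without MEC H3K27ac. All these medians are for elements with 1 region per subregion, and no interval was computed. From 4000 bp only 68 of 90 primed elements and 1985 of 2853 with H3K27ac were of this kind.

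LEC was the widest of the 3 at a larger share of primed than of acetylated elements. LEC alone was widest in 36.7% (34.9 to 38.6) of the primed elements with 1 region each, ACC in 39.6% (37.7 to 41.5) and RSC in 17.1% (15.7 to 18.6). At elements with H3K27ac the shares were 27.5% (26.6 to 28.3) for LEC, 47.8% (46.9 to 48.8) for ACC and 20.7% (19.9 to 21.5) for RSC. Within 1500 to 2475 bp LEC was widest in 35.8% (33.04 to 38.7) of primed and 29.2% (27.8 to 30.5) of acetylated elements. The intervals for LEC did not overlap in either comparison, nor under 1500 bp or at 2500 to 3975 bp. From 4000 bp they did, at 29.4% (19.9 to 41.1) of primed and 25.04% (23.2 to 26.99) of acetylated elements. Both the widths and the classes come from lists that the rule used, and the ACC H3K27ac list overlapped the most elements. No test was made of it.

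**Figure D1:**
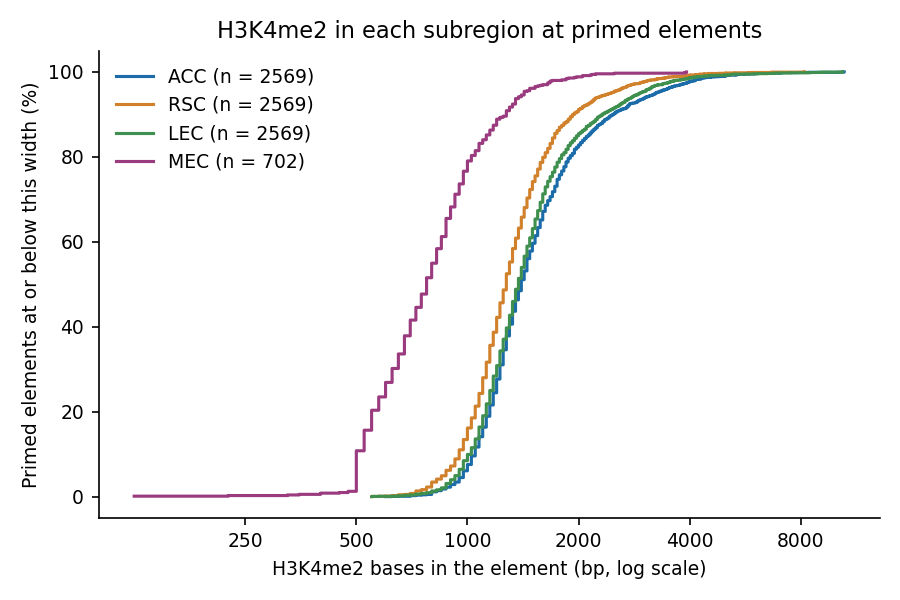
Cumulative share of primed elements (vertical axis, %) by the H3K4me2 bases of each subregion inside the element (horizontal axis, bp, log scale). ACC, RSC and LEC are drawn for 2569 elements and MEC for the 702 it overlapped; the ACC, LEC and RSC curves lie close together, with medians of 1400, 1375 and 1275 bp, and the MEC curve lies to the left, with a median of 775 bp.

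The widest members were less evenly marked. The widest, chr2:116958601-116972050, spanned 13450 bp: ACC marked 10100 bp in 2 regions, RSC 8200 bp in 3 and LEC 8575 bp in 1, and 4600 bp were marked in all 3. It lay 8.65 kb from ACC H3K27ac, 8.75 kb from RSC, 9.18 kb from LEC and 9.55 kb from MEC, and MEC had no H3K4me2 there. The element chr17:9019351-9029750 owed its 10400 bp to LEC alone, since ACC marked 1175 bp and RSC 1125 bp of it. At chr16:8843501-8852650, 9150 bp wide, LEC again marked the whole element, against 4750 bp in ACC, 3250 bp in RSC and 1950 bp in MEC. The other wide members, both on chromosome 18, measured 10500 bp and 9225 bp. In the wider of these ACC marked all 10500 bp, LEC 4350 bp and RSC 3100 bp. In 3 of these 5 elements a single subregion thus marked the whole width and the other two only parts of it.

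Few primed elements lay within 1 kb of H3K27ac. No background distance for other positions was computed, so the distances are descriptions. The distance to the nearest H3K27ac region of any list had a median of 14.5 kb (13.5 to 15.4), quartiles of 5.98 and 36.8 kb and a maximum of 1350 kb. Every distance is above 0 by choice. Only 31 members or 1.21% (0.851 to 1.71) lay within 1 kb of H3K27ac. Between 1 and 5 kb there were 506 members, between 5 and 10 kb 451, between 10 and 50 kb 1083, between 50 and 100 kb 301, and 197 or 7.67% (6.70 to 8.76) lay at 100 kb or more. By subregion, the median distance was 19.9 kb (18.4 to 21.2) to ACC H3K27ac, 23.3 kb (21.5 to 24.4) to LEC, 26.9 kb (25.6 to 28.5) to RSC and 51.9 kb (48.7 to 55.4) to MEC. This order follows the number of regions in the 4 lists, the longest list being the nearest.

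Among elements chosen to lack H3K27ac, those with H3K4me2 in more subregions lay farther from it, in classes not matched for width. The median for elements without H3K27ac was 10.2 kb (9.80 to 10.6) with H3K4me2 in 1 subregion, 12.3 kb (11.8 to 12.9) in 2 and 14.5 kb (13.5 to 15.4) in 3, and the intervals did not overlap. Width ran the other way among the members. Primed elements under 1500 bp lay at a median of 16.3 kb (14.9 to 17.95), those of 1500 to 2475 bp at 15.2 kb (13.8 to 16.9), those of 2500 to 3975 bp at 11.0 kb (8.38 to 12.9) and the 90 of 4000 bp or more at 5.76 kb (4.03 to 8.55).

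**Figure D2:**
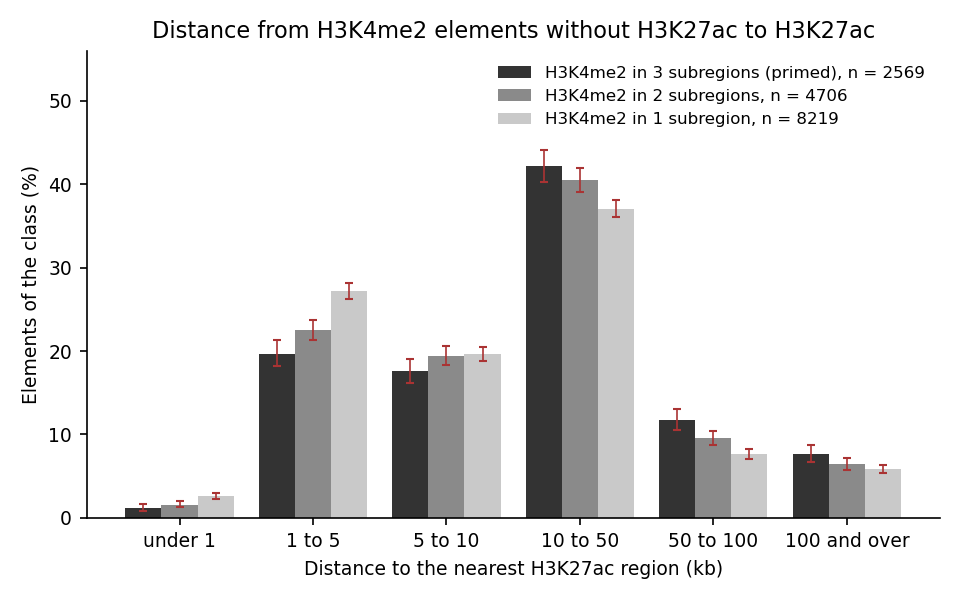
Share of elements without H3K27ac (vertical axis, %) by distance to the nearest H3K27ac region of the 4 full lists (horizontal axis, kb), for elements with H3K4me2 in 3, 2 or 1 of ACC, RSC and LEC; error bars are Wilson 95% intervals. Primed elements have the lowest share at 1 to 5 kb (19.7%) and the highest at 100 kb or more (7.67%).

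Of the H3K27ac runs nearest to a primed element, after merging the 4 full lists, 66.2% (64.3 to 67.98) included an enhancer-list region, against 66.5% (66.1 to 66.8) of all 61632 runs. Runs carried by a single subregion made up 34.2% (32.4 to 36.03) of the nearest ones and 30.3% (29.9 to 30.7) of all, and runs carried by all 4 made up 16.1% (14.7 to 17.6) and 19.7% (19.4 to 19.99). The nearest runs had a median width of 2150 bp, against 2550 bp for all runs. The share with an enhancer-list region was thus alike. The nearest runs came more often from a single subregion, with intervals that did not overlap. They were also narrower, and no interval was computed for these widths. An ACC region was nearest, alone or tied, for 1092 members, a LEC region for 838, an RSC region for 576 and a MEC region for 176.

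Primed elements lay farther than acetylated ones from the regions left out of the enhancer lists. The labels do not state the rule that removed those regions. From a primed element to the nearest such H3K4me2 region of any subregion the median was 35.4 kb (32.7 to 37.9), against 24.9 kb (24.2 to 25.9) from elements with H3K27ac. The distance to the nearest such H3K27ac region had a median of 42.3 kb (39.3 to 45.2), against 21.2 kb (20.5 to 21.95). Acetylated elements may overlap those H3K27ac regions and primed ones by the rule may not. Whether the rule also bears on the H3K4me2 distances was not tested, and neither pair of values is matched for width.

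The 5 most isolated members were 1000 to 1800 bp wide, and 2 of them lay below the lower quartile of 1325 bp. The member farthest from H3K27ac was chr6:68618251-68619250, 1000 bp wide. It was marked over 925 bp in ACC, 900 bp in RSC and 950 bp in LEC, and the nearest H3K27ac region, in RSC, lay 1350 kb away. Next came a neighbouring pair on chromosome 14. The first, chr14:44373876-44375450, had H3K4me2 over 1575 bp in ACC, 1375 bp in RSC and 1425 bp in LEC and lay 1102 kb from ACC H3K27ac, and chr14:44389551-44390600 lay 1087 kb away. MEC had no H3K4me2 in these 3. It did in the other two of the farthest 5. At chr10:103892201-103894000, 827 kb from H3K27ac, H3K4me2 of ACC covered 1575 bp, that of RSC 1700 bp, that of LEC 1800 bp and that of MEC 1350 bp. At chr8:51205076-51206700, 770 kb away, it covered 1225 bp, 1275 bp, 1625 bp and 1075 bp in the same order.

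The MEC H3K4me2 list was not used in the choice of members. It overlapped 702 of the 2569 primed elements, or 27.3% (25.6 to 29.1). Over all 13987 elements of the 3 subregions the share was 36.9%, and over those with H3K27ac it was 39.04% (38.2 to 39.9). At face value, primed minus acetylated was -11.7 percentage points (-13.6 to -9.75). The share rose with the number of H3K27ac lists on the element, from 28.8% (26.7 to 31.03) with 1 list to 33.6% (31.9 to 35.4) with 2, 36.7% (35.2 to 38.2) with 3 and 51.9% (50.2 to 53.7) with 4. Median width rose alongside, from 1575 bp for primed elements through 1900, 2200 and 2725 bp to 3525 bp.

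Within width ranges, and with MEC acetylation set apart, the gap was small. Under 1500 bp MEC H3K4me2 was present at 17.8% (15.6 to 20.2) of 1085 primed elements and at 15.9% (13.4 to 18.7) of 749 elements with H3K27ac elsewhere but none in MEC. The difference was 1.90 percentage points (-1.63 to 5.32). At 1500 to 2475 bp the values were 34.5% (31.8 to 37.4) of 1097 and 31.3% (29.7 to 32.9) of 3257, a difference of 3.26 points (0.0690 to 6.53). At 2500 to 3975 bp they were 33.7% (28.5 to 39.2) of 297 and 33.6% (31.5 to 35.7) of 1907, a difference of 0.109 points (-5.46 to 6.04). From 4000 bp they were 33.3% (24.5 to 43.6) of 90 and 36.6% (34.05 to 39.2) of 1328, a difference of -3.26 points (-12.5 to 7.29). The differences were thus at most 3.26 points either way, and the intervals still allow larger ones, above all in the widest range.

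Elements with H3K27ac in MEC itself were marked there more often at every width. Their shares were 28.5% (21.6 to 36.5), 43.5% (40.8 to 46.3), 51.8% (49.1 to 54.5) and 62.5% (60.03 to 64.9) from the narrowest to the widest range. Primed minus these was -10.7 points (-19.03 to -3.39), -8.97 points (-12.9 to -4.99), -18.1 points (-23.9 to -11.96) and -29.2 points (-38.4 to -18.6). None of these 4 intervals included 0, whereas 3 of the 4 against elements without MEC H3K27ac did. The intervals are those of a difference of shares (Newcombe), and the MEC list comes from 1 library.

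**Figure D3:**
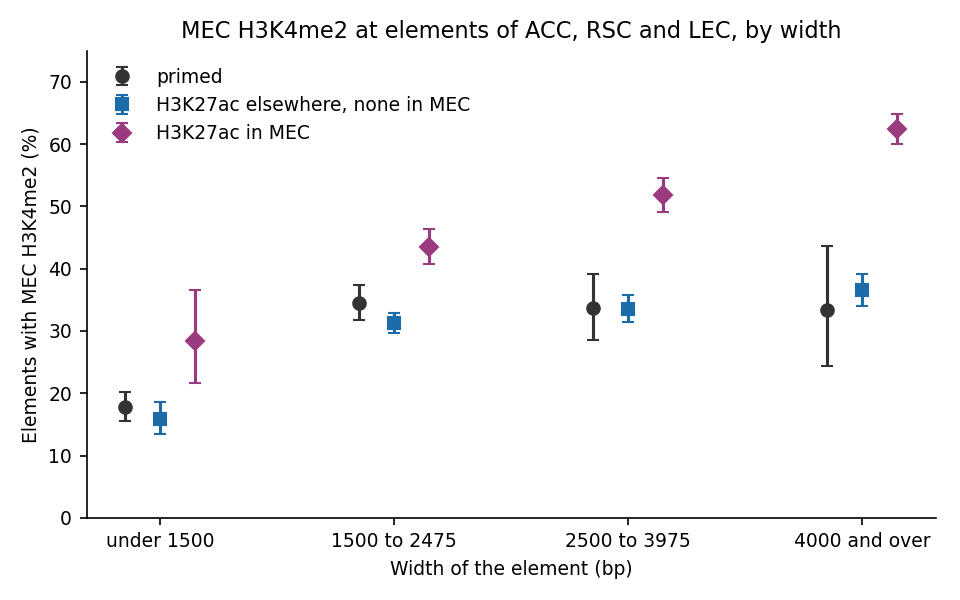
Share of elements overlapped by the MEC H3K4me2 enhancer list (vertical axis, %) by width of the element (horizontal axis, bp), for primed elements, for elements with H3K27ac in ACC, RSC or LEC but not MEC, and for elements with H3K27ac in MEC; error bars are Wilson 95% intervals. The first 2 classes stay within 3.26 points of each other, and the third is above both in each width range.

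Where MEC marked a primed element, its region was narrower and mostly lay inside the element. The 702 elements were taken for overlapping a MEC region. MEC regions were narrow over the whole list, with a median of 750 bp, so both traits are descriptions. The MEC bases inside the element had a median of 775 bp (quartiles 600 and 975). At the same 702 elements the median was 1525 bp in ACC, 1425 bp in RSC and 1550 bp in LEC. The MEC region lay wholly within the element in 667 cases, or 95.01% (93.1 to 96.4), and touched the stretch common to ACC, RSC and LEC in 685. The midpoint of the MEC region and that of the common stretch lay a median of 125 bp apart. Elements with MEC H3K4me2 were wider than those without it, with medians of 1700 bp (1675 to 1750) against 1500 bp (1475 to 1525). The full MEC list added no member to the 702. At the 1867 members without it, a shifted MEC region close by was rare: the nearest MEC region lay within 1 kb in 8 cases, and its median distance was 23.9 kb.

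The members with the most MEC H3K4me2 were on chromosomes 13, 11 and 12. At chr13:23607701-23614425 MEC marked 3925 bp, against 5600 bp in ACC, 6650 bp in RSC and 6700 bp in LEC, and H3K27ac was 7.40 kb away. At chr11:86556576-86564075 MEC marked 3875 bp in 2 regions, against 4025 bp in ACC, 3900 bp in RSC and 7500 bp in LEC. At chr12:32058901-32062775, 21.9 kb from H3K27ac, MEC marked 2500 bp, with 3775 bp in ACC, 3600 bp in RSC and 3850 bp in LEC.

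MEC H3K4me2 was found more often at primed elements far from H3K27ac. It was present at 21.6% (18.3 to 25.3) of 537 members within 5 kb of H3K27ac, 25.3% (21.5 to 29.5) of 451 at 5 to 10 kb, 28.4% (25.8 to 31.2) of 1083 at 10 to 50 kb, 31.2% (26.3 to 36.7) of 301 at 50 to 100 kb and 35.5% (29.2 to 42.4) of 197 at 100 kb or more. The last exceeded the first by 13.9 points (6.60 to 21.6). The median width was 1625 bp within 5 kb and 1525 bp at 100 kb or more, and a part of width in this order was not tested. Among members of at least 1500 bp the share went from 26.1% (21.6 to 31.1) to 46.6% (37.3 to 56.2), a difference of 20.5 points (9.92 to 31.1). Among narrower members it went from 14.7% (10.5 to 20.1) to 23.4% (15.99 to 32.9), where the interval of the difference, 8.71 points (-0.461 to 19.1), included 0. This comparison was chosen after the values were seen.

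**Figure D4:**
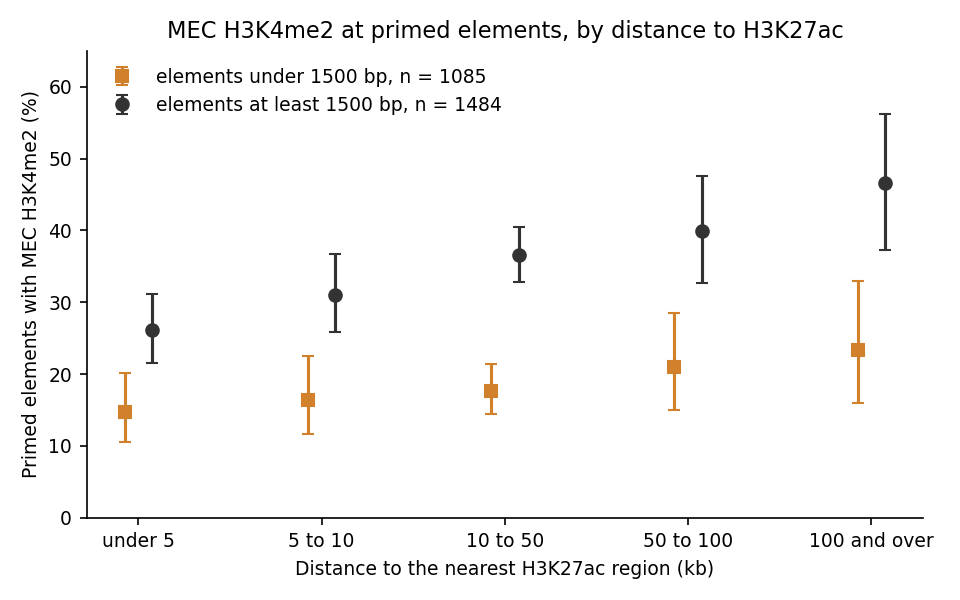
Share of primed elements overlapped by the MEC H3K4me2 enhancer list (vertical axis, %) by distance to the nearest H3K27ac region (horizontal axis, kb), for members under 1500 bp (1085) and of at least 1500 bp (1484); error bars are Wilson 95% intervals. The wider members go from 26.1% within 5 kb to 46.6% at 100 kb or more, the narrower ones from 14.7% to 23.4%.

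Primed elements were spread over all autosomes and the X chromosome. Their share of the elements of ACC, RSC and LEC was 18.4% overall and ranged over the autosomes from 14.8% (12.1 to 17.9) on chromosome 16, with 84 members, to 23.6% (20.7 to 26.7) on chromosome 10, with 181. Chromosomes 19, at 22.9% (18.6 to 27.8), and 13, at 21.1% (18.5 to 24.03), came next. Chromosome 1 held the most, 190 of 1070 elements, and the X chromosome 49 of 291, or 16.8% (12.98 to 21.6). Most intervals overlapped, and the intervals of chromosomes 10 and 16 did not.

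Along a chromosome, the nearest neighbour was primed more often for primed than for acetylated elements, though not for most members. The nearest other element of all 3 subregions was itself primed for 848 members, or 33.01% (31.2 to 34.9), but for 13.1% (12.5 to 13.8) of elements with H3K27ac, where primed elements made up 18.4% of the whole. Gaps to that neighbour had a median of 44.9 kb for members and 20.9 kb for acetylated elements, so members also sat in sparser surroundings. The nearest other member was a median of 194.5 kb (181 to 213) away. Chained at gaps of up to 100 kb, the members fell into 2064 groups. Of these, 1700 were single elements, 263 held 2, 94 held 3 or 4 and only 7 held 5 or more, with 6 as the most. The other 6 of these held 5 each, and of these the 4 with the shortest span are described.

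The group of 6 lay on chromosome 18 over 176 kb. Its members were 1225 to 2000 bp wide, and none of the elements between them carried H3K4me2 in all 3 subregions together with H3K27ac. ACC had 2 H3K27ac regions in the span, and RSC, LEC and MEC had 0. MEC H3K4me2 was at 1 of the 6. On chromosome 9, chr9:51956301-52107325 held 5 members at 16.7 to 32.8 kb from H3K27ac, with 2 H3K27ac regions each in ACC, RSC and LEC and 1 in MEC, and again MEC H3K4me2 at 1 member. On chromosome 3, chr3:148601901-148671750 held 5 members over 69.9 kb, 2.88 to 16.2 kb from H3K27ac. There the full lists had 3 H3K27ac regions of ACC, 4 of RSC, 3 of LEC and 1 of MEC within the span.

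The pair of groups on chromosome 13 stood in contrast. At chr13:114660176-114802100 the 5 members were 2325 to 3625 bp wide, and RSC marked less of each than ACC did: 975 bp against 2550 bp in the first, 800 bp against 2325 bp in the second, 1450 bp against 2700 bp in the third, 1100 bp against 3575 bp in the fourth and 1000 bp against 2500 bp in the last. MEC had H3K4me2 at none of these 5. At chr13:23486976-23614425 MEC had it at 4 of 5 members, over 1375, 775, 1050 and 3925 bp, and at the fifth, of 5575 bp, it had none. That second span was also rich in acetylation, with 7 H3K27ac regions of ACC, 6 of RSC, 8 of LEC and 2 of MEC, yet the members themselves stayed 7.40 to 14.6 kb from it. The groups were picked for their number of members, so they are given as locations.

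**Figure D5:**
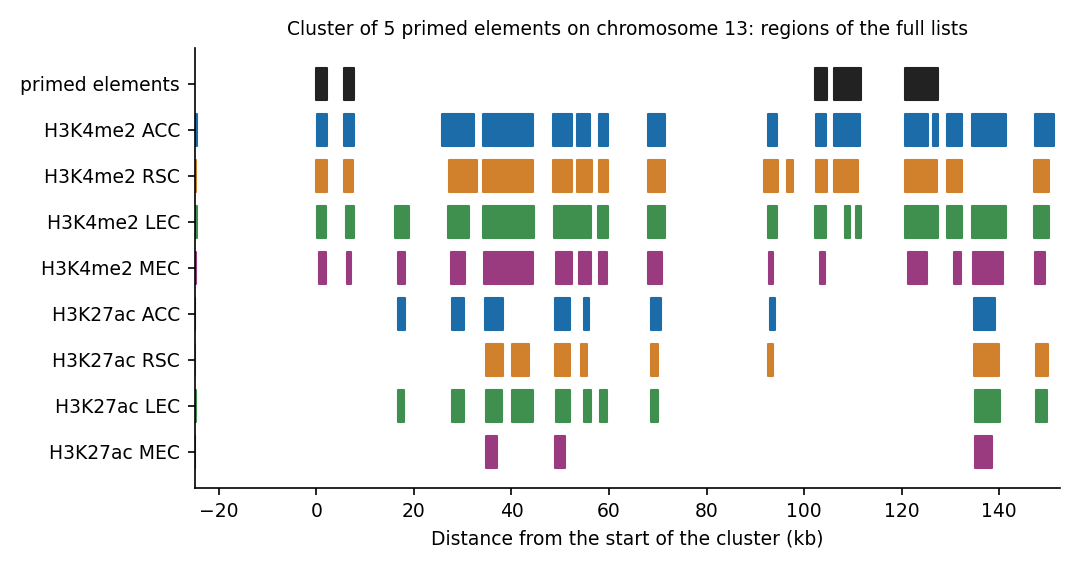
Map of the group of 5 primed elements at chr13:23486976-23614425 with the regions of the full H3K4me2 and H3K27ac lists of each subregion as bars; the horizontal axis is the distance from the start of the group in kb. All 5 members have H3K4me2 in ACC, RSC and LEC, 4 have it in MEC, and the H3K27ac bars lie between the members and beyond them.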

How the data were processed

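The deposited files are lists of enriched regions, 1 full and 1 enhancer list per subregion and mark, named reproducible by the authors. The submitters' processing notes name Bowtie 1.1.1, bedtools 2.19.0 and mm9. How peaks were called, how libraries were combined and what made a region an enhancer is not stated there or in the labels. The deposited score, in 14 of the 16 lists used, was the width of the region in bp, with 0 exceptions, so it gave no enrichment; the other 2 had none. A seventeenth list repeated another and was not used. The gene and promoter tables at hand are for GRCm38.p6, another build, so no gene was assigned and no sequence is shown.

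Merging, overlap and distance were computed with Python 3.11.15, numpy 2.4.6 and pandas 2.3.3, intervals with scipy 1.17.1. The steps were tested on simulated lists and against bedtools 2.31.1. Distances are bases between edges. No test of significance was made, since the lists hold no values per library. The regions named were the 5 widest members, the 5 farthest from H3K27ac, the 5 groups with the most members (chained at 100 kb, ties to the shorter span), the 3 with the widest MEC overlap and the 3 on each side of the rule's edge. Members and lists were chosen with earlier results of these data known.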

Additional observations from a re-analysis of the deposited data

How the results depend on the processing

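The number of members stayed within 1.5 times of 2569 under 10 of 12 alternatives. It was 4682 without the RSC H3K4me2 list and 4344 without the LEC list, where fewer subregions had to contribute. The share without H3K27ac, 18.4%, was 22.0% when an element counted as acetylated only with at least 50% of its bases under H3K27ac, 19.9% with H3K27ac enhancer lists, 12.6% with full H3K4me2 lists, 15.9% with H3K4me2 regions of at least 1000 bp, and 20.1%, 22.9% and 21.8% without the ACC, RSC and LEC list. The median width, 1575 bp, was in the same order 1675 bp with the 50% limit, 1625 bp with full lists, 1650 bp with regions of at least 1000 bp, 1450 bp without ACC, 1450 bp without RSC and 1425 bp without LEC, and it was 1275 bp for unmerged RSC regions and 1150 bp for the stretch common to the 3 lists. The median distance to H3K27ac, 14.5 kb, was 10.7 kb (10.65) with the 50% limit, 20.4 kb with enhancer lists and 12.9 kb (12.85) without RSC. The MEC H3K4me2 share, 27.3%, was 29.4% with the 50% limit, 21.4% with full lists, 32.2% with regions of at least 1000 bp, 19.7% without RSC and 22.7% without LEC. The remaining alternatives, among them autosomes alone, 3 H3K27ac lists without MEC and a gap of at least 1000 bp, stayed within the intervals of the main values. No paired analysis was possible because the lists are given per subregion and mark and carry no replicate. No library could be left out for the same reason, and the depth behind each list is unknown, so an element without H3K27ac here may carry it below the authors' threshold.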

Other observations

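Elements without H3K27ac from fewer subregions had less MEC H3K4me2 than the primed elements. It was present at 14.4% (13.5 to 15.5) of 4706 elements with H3K4me2 in 2 of ACC, RSC and LEC and at 6.24% (5.74 to 6.79) of 8219 with H3K4me2 in 1, against 27.3% (25.6 to 29.1) of primed elements. At 1500 to 2475 bp the shares were 22.2% (20.1 to 24.5), 11.5% (9.66 to 13.7) and 34.5% (31.8 to 37.4), so the order held within this width range. In the 2-subregion elements MEC H3K4me2 also went up with distance from H3K27ac, from 11.9% (10.1 to 14.0001) at 1 to 5 kb to 20.7% (16.5 to 25.6) at 100 kb or more. In the 1-subregion elements there was no steady rise, though the shares from 50 kb were above those nearer. The share was 2.79% (1.29 to 5.95) under 1 kb, 5.90% (4.998 to 6.95) at 1 to 5 kb and 5.39% (4.39 to 6.61) at 5 to 10 kb. It was 6.36% (5.55 to 7.29) at 10 to 50 kb, 8.92% (6.93 to 11.4) at 50 to 100 kb and 7.95% (5.85 to 10.7) at 100 kb or more. The interval at 100 kb or more overlapped those under 1 kb and at 1 to 5 kb. Among members, the MEC share on single chromosomes ranged from 16.5% (10.1 to 25.8) on chromosome 17 to 36.9% (27.4 to 47.6) on chromosome 16.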
